A study of Mus musculus with 6 samples.

Results

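The genes that encode the nuclear subunits of the mitochondrial respiratory chain and of the ATP synthase were chosen by symbol. They are the genes whose symbol starts with Nduf followed by a, b, c, s or v and a number, with Uqcr, with Cox4 to Cox8 or with Atp5, plus Sdha, Sdhb, Sdhc and Sdhd, without pseudogenes. Of 19505 genes with a symbol on the array 84 met this rule, 37 named for complex I, 4 for complex II, 8 for complex III, 18 for complex IV and 17 for complex V, the ATP synthase. The rule itself uses no measured value, but the genes were chosen with earlier results of these data known.

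They were measured in B16F10, a pigmented mouse melanoma cell line, on Affymetrix mouse arrays. The cells spent 48 h in medium alone (control, dose 0) or in medium with 2.5 µM or 40 µM of a compound that the labels call di-sq or SQ-diEG, with 2 arrays in each of the 3 groups. No label says whether the arrays of a group come from separate cultures, so p-values measure only the spread between these arrays, which may be technical. Titles, source names and treatment fields give the groups used here. The free-text descriptions of 4 treated arrays name another treatment, 1 of them (2.5 µM replicate 1) the medium, and these descriptions were not followed.

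Electrons enter the chain from NADH at complex I and from succinate at complex II, pass through ubiquinone to complex III, and reach oxygen through cytochrome c and complex IV. Complexes I, III and IV pump protons across the inner mitochondrial membrane, and the ATP synthase uses the return flow to make ATP. The subunits studied here are encoded in the nucleus, and many of their genes are known targets of NRF1, GABPA and the PGC-1 coactivators, of which PGC-1α is driven by MITF in a subset of melanomas.

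All values are on the deposited log2 scale, on which a difference of 1 is a doubling as far as the scale holds. As the floor of detection served the level under which 95% of negative control features lay, 9.80 to 10.06 on the 6 arrays with a mean of 9.94. All 7 pigment cell markers lay above it on every array (Tyr, Tyrp1, Dct, Pmel, Mlana, Mitf and Sox10), and all measured markers of fibroblasts (5), leukocytes (5), keratinocytes (4) and endothelium (4) lay below it on every array. The treated arrays were not alike in their control features. On 2.5 µM replicate 1 and 40 µM replicate 1 the mean of the 4 hybridisation controls was 10.43 and 10.30, against 10.82 to 11.15 on the other 4 arrays, and that of the 4 poly-A controls 5.65 and 5.63, against 6.35 to 7.41. The interquartile range of the genes was 5.20 and 5.44 on this pair of arrays and 4.90 to 4.94 on the others. The pair is called the low-control arrays below, and results are given with and without it.

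The subunit genes were among the well-detected genes of these cells. Their mean over 6 arrays was above the floor for 55 of 84 genes (65.5%), against 21.3% of all genes. On every array 45 genes were above the floor, and 19 were below it on all 6.

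On the low-control arrays the subunit genes stood well above the controls, and on the other treated arrays they did not. The median difference from the control mean was 1.17 on 40 µM replicate 1, with 76 of 84 genes higher, and 0.67 on 2.5 µM replicate 1, with 73 higher. It was −0.017 on 40 µM replicate 2, with 40 higher, and −0.16 on 2.5 µM replicate 2, with 33 higher. The replicates of a dose thus lay further apart than the doses, while the 2 control arrays differed by a median of 0.0025, with 42 genes higher on the second. All genes together had medians of −0.04, 0.0001, −0.01 and 0.01 on the same 4 treated arrays, where the authors' normalization holds them near 0.

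The size of the shift differed widely between subunits. On 40 µM replicate 1 the differences ran from −0.67 (Cox4i2) to 3.21 (Ndufb9), and 52 of the 84 genes (61.9%) were at least 1 above the control mean, where 7.58% of all genes were. On 2.5 µM replicate 1 they ran from −0.40 to 2.21, and 21 genes were at least 1 above, where 2.39% of all genes were. On 40 µM replicate 2 and 2.5 µM replicate 2 no subunit gene was that far above the controls (all genes 0.913% and 0.897%). On 40 µM replicate 2, 75 of the 84 genes were within 0.5 of the control mean, a count not compared with that of all genes. That the low-control arrays are also low in control features and wide in spread moves with these values, and the part of those differences in the result was not tested.

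**Figure D1:**
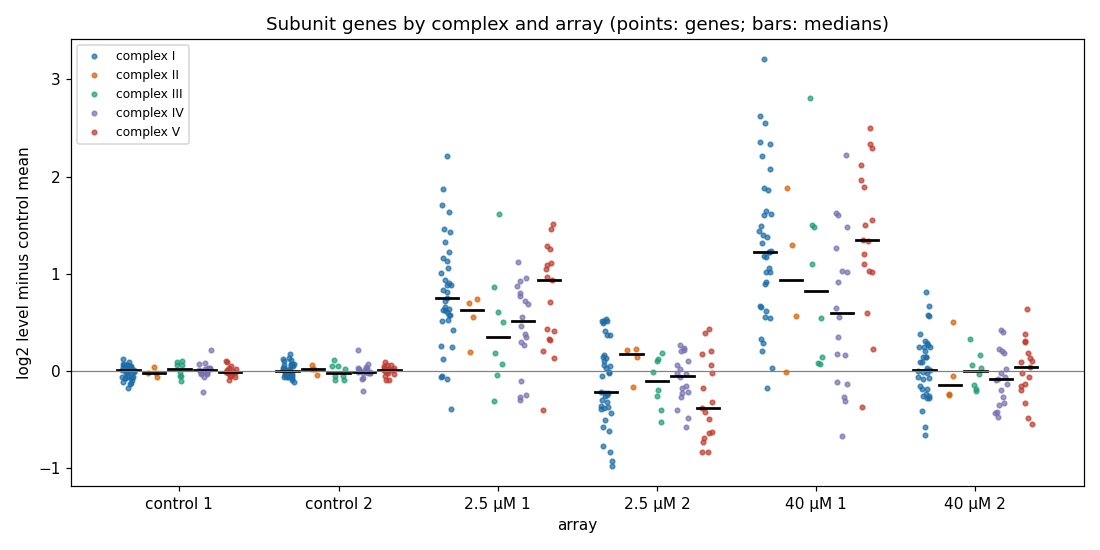
Differences of the subunit genes from the mean of the 2 control arrays (log2, vertical axis), by complex on each of the 6 arrays, each point a gene and each bar a median. The medians of all 5 complexes lie above 0 on both low-control arrays (0.34 to 1.34) and between −0.38 and 0.18 on the other treated arrays.

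**Figure D2:**
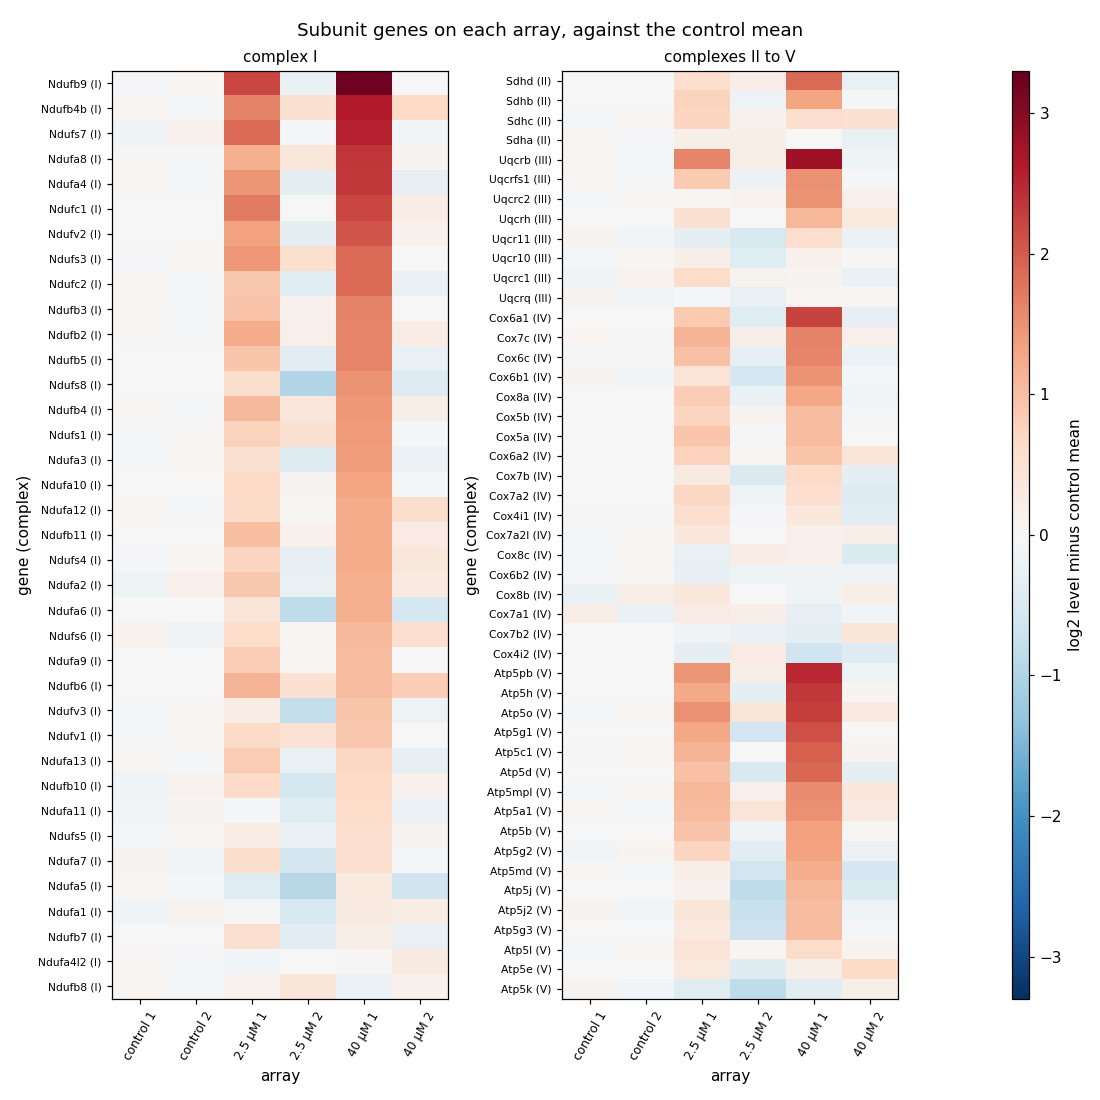
Log2 level of each of the 84 subunit genes on each of the 6 arrays relative to the control mean, genes grouped by complex. Colour gives the difference (red higher, blue lower), and genes of a complex are ordered by it on 40 µM replicate 1. Most genes are red in the columns of 2.5 µM replicate 1 (73 of 84) and 40 µM replicate 1 (76 of 84).

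Genes of like level did not share this shift. Among all genes with a mean level of 12 to 14, the median difference on 40 µM replicate 1 was 0.03, and among the 18 subunit genes of that range it was 1.32. Between 10 and 12 the medians were 0.15 for all genes and 1.10 for 31 subunit genes, and between 8 and 10 they were 0.26 and 1.22 (16 subunit genes). The 9 subunit genes under a level of 6, which is below the floor, had a median of −0.11, against −0.18 for all genes of that range.

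**Figure D3:**
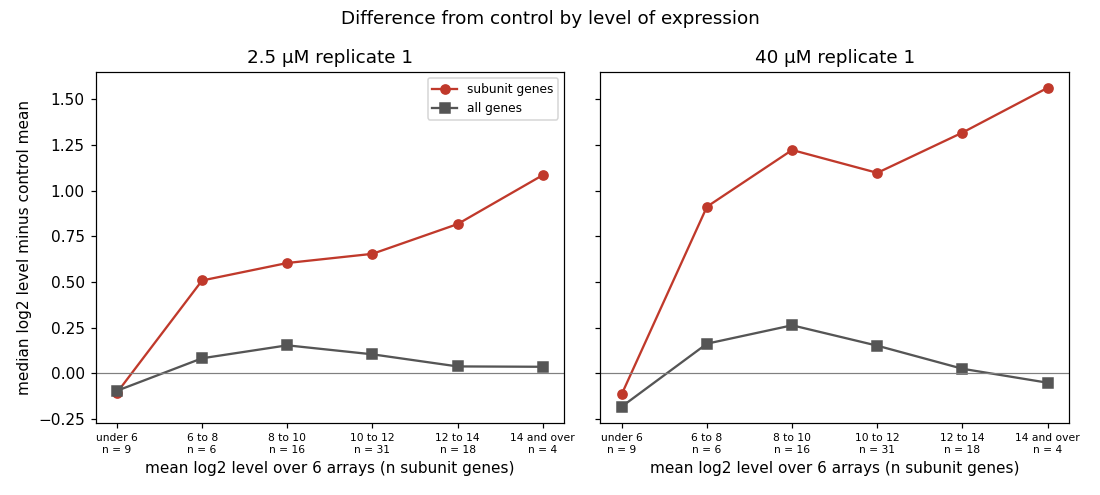
Difference from the control mean on 40 µM replicate 1 and on 2.5 µM replicate 1 (log2) against the mean level over 6 arrays, with the median of all genes and of the subunit genes in each range of levels. Above a level of 6 the subunit medians lie above those of all genes in every range on both arrays.

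No subunit gene differed between groups after adjustment over all genes. The limma fit on all 6 arrays called 0 of 84 subunit genes and 0.0% of all genes at an adjusted p of 0.05 in each of the 3 comparisons. The smallest adjusted p-values among the subunit genes in limma were 0.349 for 40 µM against control, 0.479 for 2.5 µM against control and 0.854 for 40 µM against 2.5 µM. At an unadjusted p of 0.05, 5 subunit genes (5.95%) were higher at 40 µM than in control, against 5.18% of all genes, and 0 were lower, against 6.86%. At 2.5 µM 1 was higher (all genes 4.24%) and 0 lower (5.38%), and 1 was higher at 40 µM than at 2.5 µM (2.34%) and 0 lower (3.28%). These shares are close to or under those of all genes. The fit takes the spread between replicates as error, and that spread was wide for the subunit genes.

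The median differences of group means were nevertheless all above 0. They were 0.59 for 40 µM against control (73 of 84 genes higher), 0.27 for 2.5 µM against control (61 higher) and 0.34 for 40 µM against 2.5 µM (71 higher), while the medians of all genes were −0.01, 0.01 and −0.0032. Without 40 µM replicate 1 the first became −0.017, and without 2.5 µM replicate 1 the second became −0.16. Without 40 µM replicate 1 the third became −0.35, and without 2.5 µM replicate 2 it became −0.13. Each of these medians thus changed its sign with the loss of a single array.

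Without both low-control arrays, an alternative added after seeing the data, the limma fit had 1 array per dose and took its error from the controls alone. For 40 µM against control 9 subunit genes were higher (10.7%, all genes 9.15%) and 8 lower (9.52%, all genes 10.1%) at an adjusted p of 0.05. For 2.5 µM against control 8 were higher (9.52%, all genes 10.6%) and 25 lower (29.8%, all genes 9.88%). Between doses 15 were higher at 40 µM (17.9%, all genes 7.04%) and 6 lower (7.14%, all genes 8.16%). The difference between 2 single arrays has no replicate check in this fit. With the replicate number of the titles as a block, 29 subunit genes were higher at 40 µM than in control at an unadjusted p of 0.05 (34.5%, all genes 7.66%), and no adjusted p passed.

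Counted by arrays, the subunit genes were more often above the controls at 40 µM than all genes and less often below them, as shares with no test. Among genes with a mean above the floor, both 40 µM arrays were above both controls for 22 of 55 subunit genes and 1087 of all 4147. At 2.5 µM the counts were 18 and 1411, and for all 4 treated arrays 10 and 670. In these last 2 counts the shares of subunit genes and of all genes above the floor were close. The filter takes the mean over all 6 arrays, so some subunit genes passed it only through the low-control arrays. On every array 45 of the 55 and 3628 of the 4147 were above the floor. Both 40 µM arrays were above both controls for 30 subunit genes (35.7%), against 22.2% of all genes, and below both for 2 (26.3% of all genes). Both 2.5 µM arrays were above both controls for 27 (32.1%, all genes 27.1%) and below both for 5 (25.9%). All 4 treated arrays were above both controls for 15 genes (17.9%, all genes 13.0%), namely Ndufa8, Ndufa9, Ndufb2, Ndufb4, Ndufb4b, Ndufb6, Ndufb11, Sdhc, Uqcrc2, Cox6a2, Cox7c, Atp5a1, Atp5l, Atp5mpl and Atp5o. Cox6b2, a testis form of a complex IV subunit and below the floor, was the 1 gene below both controls on all 4 (all genes 14.8%).

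Between the doses few genes separated. Both 40 µM arrays were above both 2.5 µM arrays for 7 subunit genes (8.33%, all genes 12.4%), namely Ndufa1, Ndufa4l2, Uqcr11, Uqcrc2, Uqcrq, Cox6b2 and Atp5k, and below both for 4 (4.76%, all genes 16.3%), namely Sdha, Uqcrc1, Cox4i2 and Cox7a1. A mean below the floor held for 5 of the 7 and for 2 of the 4, and values there carry no firm order. Ndufa1, a small membrane arm subunit encoded on the X chromosome, had the smallest p of this comparison. It read 10.82 and 11.05 on the controls, 10.87 and 10.43 at 2.5 µM and 11.22 and 11.18 at 40 µM, a difference between doses of 0.55 (SE 0.22) with a limma adjusted p of 0.854.

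The promoters of these genes are shown for the motifs of the regulators named above, because many of the genes lay high on the same arrays. RefSeq promoters (GRCm38.p6) were matched for 69 of the 84 genes, and the 250 bases before the start of the gene were searched on both strands. The NRF1 motif, the 10-base palindrome in capitals in the Cox6a1 and Atp5g2 windows printed here, was present in 4 of 69 (5.8%; Ndufa11, Cox6a1, Atp5g2 and Atp5k), against 0.877% of 27025 genes. The ETS motif CCGGAAG, of the family that GABPA belongs to, was present in 12 of 69 (17.4%), against 7.83%, and the SP1 motif GGGCGG in 25 (36.2%), against 35.4%. In the windows printed no NRF1 match overlaps an ETS match. The windows below are those of Ndufb6, which had the smallest p at 40 µM, and, in each complex, of the gene with an NRF1 or ETS match and the highest mean level. They are printed in the direction of the gene, all on the minus strand, with NRF1 and ETS matches in capitals. They lie at chr4:40279422-40279671 (Ndufb6), chr2:90904722-90904971 (Ndufs3), chr9:50603850-50604099 (Sdhd), chr4:116075071-116075320 (Uqcrh), chr5:115348959-115349208 (Cox6a1) and chr15:102671048-102671297 (Atp5g2).
Ndufb6: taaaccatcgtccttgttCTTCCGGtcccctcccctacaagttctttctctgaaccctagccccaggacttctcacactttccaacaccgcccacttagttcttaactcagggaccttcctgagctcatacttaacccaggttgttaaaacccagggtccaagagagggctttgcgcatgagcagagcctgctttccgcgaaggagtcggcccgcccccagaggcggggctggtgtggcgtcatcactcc
Ndufs3: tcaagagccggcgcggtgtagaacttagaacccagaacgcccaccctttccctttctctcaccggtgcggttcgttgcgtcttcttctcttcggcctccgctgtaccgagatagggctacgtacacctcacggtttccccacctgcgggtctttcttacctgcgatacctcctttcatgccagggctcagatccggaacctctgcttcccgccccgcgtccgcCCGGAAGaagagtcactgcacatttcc
Sdhd: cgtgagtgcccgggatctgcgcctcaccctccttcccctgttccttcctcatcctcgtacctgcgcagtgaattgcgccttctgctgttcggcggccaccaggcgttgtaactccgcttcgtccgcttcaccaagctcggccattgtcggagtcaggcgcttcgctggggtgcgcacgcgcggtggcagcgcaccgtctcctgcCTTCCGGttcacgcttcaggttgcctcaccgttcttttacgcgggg
Uqcrh: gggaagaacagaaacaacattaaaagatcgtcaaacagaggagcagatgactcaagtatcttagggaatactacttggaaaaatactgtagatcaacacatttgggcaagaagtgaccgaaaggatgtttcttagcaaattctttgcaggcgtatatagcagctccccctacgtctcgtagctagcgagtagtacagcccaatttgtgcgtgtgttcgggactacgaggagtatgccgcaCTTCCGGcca
Cox6a1: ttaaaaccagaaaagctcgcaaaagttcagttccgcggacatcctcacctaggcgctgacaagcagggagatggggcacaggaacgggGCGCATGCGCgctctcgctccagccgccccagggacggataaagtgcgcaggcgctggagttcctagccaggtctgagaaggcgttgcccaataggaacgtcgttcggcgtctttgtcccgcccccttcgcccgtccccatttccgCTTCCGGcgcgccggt
Atp5g2: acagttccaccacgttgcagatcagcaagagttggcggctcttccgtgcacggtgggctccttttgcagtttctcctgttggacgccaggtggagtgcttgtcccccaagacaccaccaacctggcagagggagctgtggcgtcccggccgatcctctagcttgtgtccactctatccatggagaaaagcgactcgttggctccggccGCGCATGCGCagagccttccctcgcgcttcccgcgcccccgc

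In Cox6a1 the NRF1 match lies 162 to 153 bases before the start and the ETS match, on the opposite strand, 16 to 10 bases before it. The NRF1 match of Atp5g2 lies 42 to 33 bases before the start. The ETS matches lie 27 to 21 bases before the start in Ndufs3, 46 to 40 in Sdhd, 10 to 4 in Uqcrh and 232 to 226 in Ndufb6, and all but that of Ndufs3 are on the opposite strand. On 40 µM replicate 1, a low-control array, the median difference from control was 0.98 for the 4 genes with the NRF1 motif and 1.17 without it. It was 1.10 with (12 genes) and 1.20 without the ETS motif, and 1.10 with (25 genes) and 1.19 without the SP1 motif. These are descriptions, and a part of these regulators in the shift was not tested.

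Complex I takes electrons from NADH in a matrix arm and pumps protons in a membrane arm. Its 37 genes had medians of 0.75 and −0.22 on the 2 arrays at 2.5 µM and of 1.22 and 0.01 on those at 40 µM, and 36 of 37 were above control on 40 µM replicate 1. The median difference of group means for 40 µM against control was 0.69, and 4 of the 37 genes were higher at an unadjusted p of 0.05 in that comparison (5.18% of all genes).

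Ndufb6, an accessory subunit of the membrane arm, had the smallest p of all subunit genes against control at both doses. Its levels were 10.03 and 10.02 on the controls, 11.15 and 10.54 at 2.5 µM and 11.04 and 10.84 at 40 µM. All 4 treated arrays were above both controls, the nearest by 0.50. The difference was 0.91 (SE 0.25) at 40 µM, 1.89-fold, with a limma p of 0.00745 and an adjusted p of 0.349. At 2.5 µM it was 0.82 (SE 0.25), with a limma adjusted p of 0.479.

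Ndufa12 and Ndufs6, accessory subunits at the matrix arm, came next at 40 µM. Ndufa12 had levels of 12.86 and 12.75 on the controls, 13.43 and 12.83 at 2.5 µM and 14.03 and 13.38 at 40 µM. Both 40 µM arrays were above both controls, by 0.90 (SE 0.29) on average, with a limma adjusted p of 0.354. Ndufs6, a zinc-binding subunit of the electron input module, read 10.30 and 10.06 on the controls, 10.79 and 10.24 at 2.5 µM and 11.24 and 10.74 at 40 µM, a difference of 0.81 (SE 0.27) and a limma adjusted p of 0.365.

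Ndufb9, another membrane arm subunit, shows how far replicates could part. It read 10.88 and 11.00 on the controls, 13.15 and 10.71 at 2.5 µM and 14.15 and 10.95 at 40 µM. The low-control arrays stood far above the controls and the other treated arrays close to them, so that a mean difference of 1.61 (SE 1.08) at 40 µM had a limma adjusted p of 0.55. Ndufb4b, whose values are uncertain because it is a near copy of Ndufb4, read 9.78 and 9.66, then 11.36 and 10.24, then 12.34 and 10.39, with all 4 treated arrays above both controls.

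The catalytic subunits of the matrix arm followed the arrays unequally. Ndufv1, which binds NADH and the flavin, read 12.03 and 12.18 on the controls, 12.73 and 12.59 at 2.5 µM and 13.00 and 12.10 at 40 µM, so that both 2.5 µM arrays were above the controls and 40 µM replicate 2 was not. Ndufs1, the iron-sulfur subunit that hands electrons on, read 10.02 and 10.12, then 10.82 and 10.58, then 11.47 and 9.99. Ndufs7, at the quinone site and below the floor on all arrays but 40 µM replicate 1, read 7.15 and 7.41, then 9.15 and 7.23, then 9.83 and 7.19.

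Other subunits that carry iron-sulfur clusters or flank them parted by replicate in the same way. Ndufv2 read 10.92 and 10.90 on the controls, 12.23 and 10.60 at 2.5 µM and 12.98 and 11.04 at 40 µM. Ndufs3, whose promoter is printed above, read 11.14 and 11.27, then 12.63 and 11.74, then 13.08 and 11.21. Ndufs8 read 8.35 and 8.38, then 8.93 and 7.39, then 9.85 and 7.95. In Ndufs8 replicate 2 lay below both controls at both doses, whereas in Ndufs3 it was above them at 2.5 µM and between them at 40 µM. Ndufb8 was the 1 complex I gene below the control mean on 40 µM replicate 1, with 7.74 and 7.62, then 7.80 and 8.09, then 7.50 and 7.82, all under the floor. On that array 25 of the 37 genes were at least 1 above the control mean, and on 2.5 µM replicate 1 this held for 12.

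Parts of complex I did not separate. On 40 µM replicate 1 the median difference from control was 1.17 for the 10 genes of the electron input module, 1.49 for 5 of the quinone module and 1.35 for the 20 others of the membrane arm, and on 40 µM replicate 2 it was 0.06, −0.09 and 0.09. Ndufa9, which helps hold the matrix arm to the membrane arm, read 11.67 on both controls, 12.47 and 11.71 at 2.5 µM and 12.68 and 11.69 at 40 µM. Its replicate 2 arrays exceeded the controls only slightly. Ndufa5 was the 1 complex I gene with both 2.5 µM arrays (11.01 and 10.47) below both controls (11.46 and 11.32), and its 40 µM arrays (11.72 and 10.73) lay on either side.

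Complex II, succinate dehydrogenase, also works in the citric acid cycle and pumps no protons. Sdha, its flavin subunit, read 10.21 and 10.13 on the controls, 10.37 and 10.38 at 2.5 µM and 10.16 and 9.94 at 40 µM. It was 1 of 8 subunit genes at or below the control mean on 40 µM replicate 1, and both 40 µM arrays were below both 2.5 µM arrays. The difference of −0.33 (SE 0.19) had a limma adjusted p of 0.858.

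The other 3 complex II genes stood high on 40 µM replicate 1. Sdhb, the iron-sulfur subunit, read 12.73 and 12.77 on the controls, 13.49 and 12.58 at 2.5 µM and 14.05 and 12.70 at 40 µM. The membrane anchor Sdhd read 8.69 and 8.73, then 9.26 and 8.94, then 10.59 and 8.46. Sdhc, the other membrane anchor, was above both controls (10.11 and 10.24) on all 4 treated arrays, with 10.88 and 10.31 at 2.5 µM and 10.74 and 10.68 at 40 µM, a difference of 0.54 (SE 0.24) at 40 µM with a limma adjusted p of 0.423.

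Complex III passes electrons from ubiquinol to cytochrome c. Its core subunits went separate ways: Uqcrc1 read 10.90 and 11.12 on the controls, 11.61 and 11.12 at 2.5 µM and 11.10 and 10.80 at 40 µM, while Uqcrc2, below the floor, read 8.25 and 8.36, then 8.37 and 8.43, then 9.79 and 8.47. For Uqcrc1 the 40 µM arrays were below both 2.5 µM arrays, and for Uqcrc2 above both. The limma differences between doses were −0.42 (SE 0.24, adjusted p 0.857) and 0.73 (SE 0.40, adjusted p 0.854).

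Among the other subunits of complex III, Uqcrb had the second highest difference of all 84 genes on 40 µM replicate 1. It read 13.47 and 13.35 on the controls, 15.03 and 13.60 at 2.5 µM and 16.22 and 13.27 at 40 µM. Uqcrh, the hinge protein that contacts cytochrome c1, read 10.95 and 10.98, then 11.46 and 10.95, then 12.06 and 11.29. Both 40 µM arrays of Uqcrh were above both controls, with a difference from control of 0.71 (SE 0.30) and a limma adjusted p of 0.413. Uqcrfs1, the Rieske iron-sulfur protein, read 9.84 and 9.72, then 10.65 and 9.59, then 11.28 and 9.75. Uqcrq differed little between arrays, at 13.26 and 13.08, then 13.12 and 12.91, then 13.23 and 13.23.

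Complex IV, cytochrome c oxidase, had the smallest medians of the complexes on 40 µM replicate 1 (0.60) and for 40 µM against control (0.17). Its list holds 8 genes below the floor on all 6 arrays, most of them isoforms of other tissues: Cox4i2, Cox6a2, Cox6b2, Cox7a1, Cox7b2, Cox8b and Cox8c, besides Cox7a2l, a factor in supercomplex assembly. The ubiquitous forms Cox4i1, Cox6a1, Cox7a2 and Cox8a lay above the floor on all 6 arrays.

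Cox4i1, the ubiquitous form of subunit 4, read 11.93 and 11.88 on the controls, 12.46 and 11.84 at 2.5 µM and 12.25 and 11.55 at 40 µM, with a group difference of −0.0033 at 40 µM. Cox5a read 11.14 and 11.17, then 12.08 and 11.12, then 12.17 and 11.17, with replicate 2 close to the controls at both doses. Cox5b behaved alike, with 13.70 and 13.66, then 14.40 and 13.77, then 14.70 and 13.62.

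Cox6a1 and Cox6c had larger gaps. Cox6a1, whose promoter is printed above, read 12.33 and 12.30 on the controls, 13.19 and 11.92 at 2.5 µM and 14.54 and 12.05 at 40 µM, with replicate 2 below the controls at both doses. Cox6c read 13.15 and 13.21, then 14.13 and 12.91, then 14.79 and 12.98. Cox7c read 15.44 and 15.28, then 16.48 and 15.57, then 16.99 and 15.54, and was above both controls on all 4 treated arrays. Cox8a read 12.86 and 12.87, then 13.67 and 12.64, then 14.13 and 12.78. Without the low-control arrays the difference from control at 40 µM was below 0 for Cox6a1, Cox6c, Cox8a and Cox7a2. Cox7a2 read 10.48 and 10.46, then 11.16 and 10.32, then 11.03 and 10.04.

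Ndufa4 belongs to this complex by function. It was named for complex I and is now known as a subunit of complex IV, and it read 12.25 and 12.13 on the controls, 13.65 and 11.87 at 2.5 µM and 14.52 and 11.92 at 40 µM. Its homolog Ndufa4l2, induced by hypoxia in other cells, was below the floor throughout at 3.26 to 3.62. Of the other dim genes Cox4i2, the oxygen-regulated form of subunit 4, read 4.59 and 4.55, then 4.27 and 4.84, then 3.90 and 4.14. Both 40 µM arrays were lowest of the 6, yet values under the floor carry no firm order.

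The ATP synthase genes had the largest medians of the complexes on the low-control arrays, 0.94 at 2.5 µM and 1.34 at 40 µM, and medians of −0.38 and 0.04 on the other treated arrays. Of its 17 genes 16 were above control on 40 µM replicate 1 and 14 at least 1 above. All 17 had a higher mean at 40 µM than at 2.5 µM, with a median of 0.49.

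In the catalytic head, Atp5a1 (the alpha subunit) read 13.94 and 13.88 on the controls, 14.96 and 14.34 at 2.5 µM and 15.41 and 14.22 at 40 µM. All 4 treated arrays were above both controls, the nearest by 0.28, and the difference at 40 µM was 0.90 (SE 0.39), with a limma adjusted p of 0.417. Atp5b, the catalytic beta subunit, read 15.72 and 15.69, then 16.64 and 15.53, then 17.05 and 15.75. The gamma subunit Atp5c1, part of the rotating stalk, read 12.75 and 12.88, then 13.93 and 12.79, then 14.78 and 12.91. For both, replicate 2 lay close to the controls at each dose.

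The stalk and membrane subunits covered a wider range. Atp5o, in the stalk that holds the head still, read 10.53 and 10.65 on the controls, 12.10 and 10.98 at 2.5 µM and 12.88 and 10.88 at 40 µM, above both controls on all 4 treated arrays. Atp5mpl, a small membrane subunit, read 10.85 and 10.90, then 11.96 and 11.05, then 12.43 and 11.26, also above on all 4. Atp5pb, the peripheral stalk b subunit, read 10.50 and 10.51, then 11.96 and 10.71, then 13.00 and 10.37. Atp5k, of the membrane part and below the floor, read 6.82 and 6.63, then 6.33 and 5.89, then 6.35 and 6.91, with both 2.5 µM arrays below both controls.

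The remaining subunits of the head, stalks and membrane part shared this layout with exceptions. Atp5d, the delta subunit of the rotating stalk, read 11.76 and 11.78 on the controls, 12.73 and 11.28 at 2.5 µM and 13.66 and 11.44 at 40 µM, and Atp5h, of the peripheral stalk, read 12.55 and 12.50, then 13.78 and 12.20, then 14.86 and 12.61. Atp5l, a membrane subunit, had a narrower spread and all 4 treated arrays above both controls, with 11.45 and 11.56, then 11.94 and 11.57, then 12.10 and 11.63. Atp5e, the epsilon subunit, was highest on 40 µM replicate 2, with 9.99 and 10.02, then 10.33 and 9.58, then 10.23 and 10.64. Besides Atp5k it was the ATP synthase gene whose 40 µM replicate 2 array exceeded replicate 1.

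The 3 genes of the c-ring, the rotor through which protons pass, encode the same mature protein. Atp5g1 read 9.50 and 9.55 on the controls, 10.81 and 8.90 at 2.5 µM and 11.65 and 9.50 at 40 µM. Atp5g2 read 13.66 and 13.84, then 14.46 and 13.37, then 15.08 and 13.56. Atp5g3 read 11.66 and 11.69, then 11.99 and 10.98, then 12.69 and 11.61. In all 3 the order of the treated arrays was 40 µM replicate 1, 2.5 µM replicate 1, 40 µM replicate 2, 2.5 µM replicate 2.

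Part of that order, 40 µM above 2.5 µM, recurs across many subunit genes when arrays of the same replicate number are compared. The replicate 2 arrays were less alike in control features than the replicate 1 arrays. Their hybridisation controls read 10.82 at 2.5 µM and 11.15 at 40 µM, and their poly-A controls 6.79 and 7.41. Taking replicate 1 with replicate 1 and replicate 2 with replicate 2, which among treated arrays pairs the low-control arrays with each other, 40 µM was above 2.5 µM by a median of 0.49 in the first pair (67 of 84 higher) and of 0.15 in the second (59 higher). Both pairs were higher for 50 of 84 genes (59.5%), against 24.6% of all genes, and both lower for 8 (9.52%), against 26.2%. By complex both pairs were higher for 23 of 37 genes in complex I, 1 of 4 in complex II, 5 of 8 in complex III, 8 of 18 in complex IV and 13 of 17 in the ATP synthase.

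**Figure D4:**
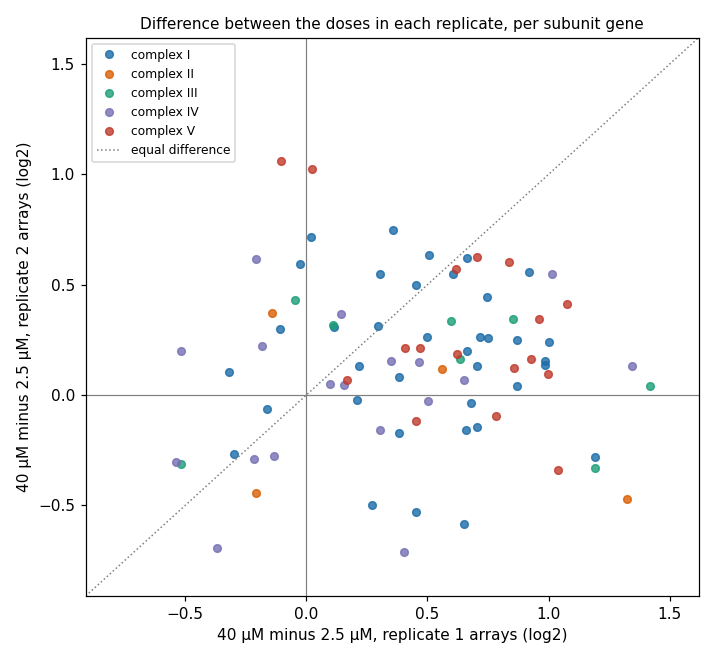
Difference 40 µM minus 2.5 µM (log2) in the replicate 1 pair of arrays against that in the replicate 2 pair, each point a subunit gene coloured by complex, with a dotted line where both are equal. Of the 84 subunit genes 50 lie above 0 on both axes and 8 below 0 on both.

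The sizes in the 2 pairs were not related from gene to gene. Across the 84 genes Pearson's r between the pairs was 0.0281, from 4 different arrays, as a description of genes that are not independent of each other. The 8 genes lower in both pairs were Ndufa13, Ndufb8, Sdha, Uqcrc1, Cox4i1, Cox4i2, Cox7a1 and Cox7a2. Those at least 0.5 higher in both were Ndufa12, Ndufs4, Ndufs8, Ndufv3, Cox6b1, Atp5g1, Atp5g3 and Atp5j2, a list chosen after its values were seen.

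With the split of the arrays by control features as a block, an alternative added after seeing the data, the spread between replicates left the error term. In this limma fit 32 subunit genes (38.1%) were higher at 40 µM than at 2.5 µM at an unadjusted p of 0.05, against 6.87% of all genes, and 2 (2.38%) lower, against 6.33%. They were 16 of complex I, 3 of complex III, 2 of complex IV and 11 of the ATP synthase. The smallest limma p was that of Atp5g3, with a difference of 0.66 (SE 0.13). It was followed by Atp5g1 (0.72, SE 0.15), Ndufa12 (0.58, SE 0.12), Cox6b1 (0.78, SE 0.17) and Atp5j2 (0.60, SE 0.13). None passed adjustment, with 0.237 as the smallest limma adjusted p, while 1 of all genes did (0.00513%).

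Against the control the same block gave other pictures at the 2 doses. At 40 µM the median was 0.08, with 7 genes higher at an unadjusted p of 0.05 (all genes 7.14%) and 2 lower (7.68%). At 2.5 µM it was −0.20, with 1 higher (6.8%) and 21 lower (25.0%, all genes 7.51%), and the smallest limma adjusted p was 0.226. No control array is among the low-control arrays, so the block was estimated from the treated arrays alone. The doses also differed in control features, but not in the same direction in both replicates. In hybridisation controls 40 µM replicate 1 was lower than 2.5 µM replicate 1 (10.30 and 10.43). By contrast, 40 µM replicate 2 was the highest array in both kinds (11.15 and 7.41). The part of these differences in the result was not tested.

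Between replicates of a dose the same genes parted at both doses. Replicate 1 minus replicate 2 had a median of 0.86 at 2.5 µM, with 77 of 84 genes above 0 (49.5% of all genes), and of 1.08 at 40 µM, with 75 above 0 (48.3% of all genes). The 2 differences come from 4 different arrays, and across the 84 genes their Pearson's r was 0.751, against 0.386 across all genes. With a mean above the floor it was 0.799 across 55 subunit genes and 0.651 across all 4147 genes, as a description across genes. That mean takes in the low-control arrays. By complex the medians at 40 µM were 1.07 for complex I, 0.79 for II, 0.75 for III, 0.84 for IV and 1.53 for the ATP synthase.

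**Figure D5:**
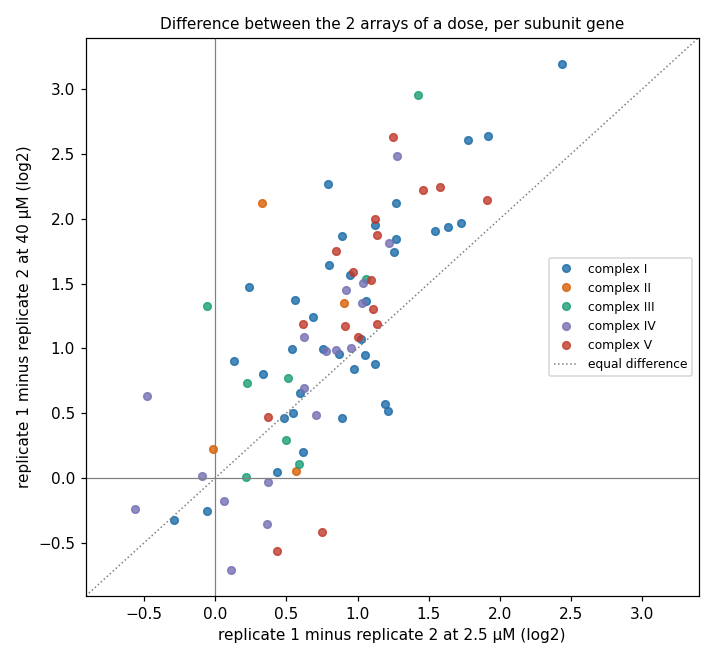
Replicate 1 minus replicate 2 at 40 µM against that at 2.5 µM (log2), each point a subunit gene coloured by complex, with a dotted line where both are equal. Most subunit genes lie in the upper right, 77 above 0 at 2.5 µM and 75 above 0 at 40 µM.

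Other genes of the pathway, from lists of electron carriers, assembly factors and regulators, served to see how far the pattern reached. Of 9 electron carrier genes measured, Cycs, Etfa and Aifm1 stood well above control on both low-control arrays. Cycs, the somatic cytochrome c, had 14.67 and 14.79 on the controls, 15.64 and 14.75 at 2.5 µM and 16.12 and 14.74 at 40 µM. Etfa, which feeds electrons from fatty acid oxidation to ubiquinone, had 11.25 and 11.17, then 12.28 and 11.02, then 12.78 and 11.36. Aifm1, a flavoprotein needed for the import of respiratory chain subunits, had 8.62 and 8.80, then 9.71 and 9.07, then 11.06 and 9.13. Cyc1, the cytochrome c1 of complex III, showed no such gap, with 9.28 and 9.45, then 9.65 and 9.10, then 9.48 and 9.78. The list's medians were 0.29 and 0.02 at 2.5 µM and 0.12 and 0.26 at 40 µM.

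The 49 genes measured from the lists of assembly factors had a smaller shift than the 84 subunit genes together. Assembly factors build the complexes without staying in them, and the ATP synthase list also holds its inhibitor, Atpif1. The medians of the 49 were 0.22 and 0.06 at 2.5 µM and 0.57 and −0.10 at 40 µM. Of them 35 were below the floor on all 6 arrays. The 29 subunit genes with a mean below the floor had medians of 0.38 and −0.05 at 2.5 µM and 0.62 and −0.004 at 40 µM. At 40 µM these medians lay close to those of the assembly factors. Both pairs of arrays were higher at 40 µM than at 2.5 µM for 11 of 49, close to the 24.6% of all genes. Against control at 40 µM 5 were higher (5.18% of all genes) and 1 lower (6.86%) at an unadjusted p of 0.05, and none passed adjustment (smallest limma adjusted p 0.349).

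The 13 regulators of mitochondrial gene expression measured had smaller median differences than the subunits. Their medians were −0.03 and −0.10 at 2.5 µM and 0.37 and −0.06 at 40 µM. In limma 0 were higher (5.18% of all genes) and 2 lower (6.86%) than control at 40 µM at an unadjusted p of 0.05. The 2 lower were Ppargc1a and Pprc1. Pprc1, below the floor, read 7.01 and 6.58 on the controls, 5.81 and 5.98 at 2.5 µM and 5.78 and 6.17 at 40 µM. On 40 µM replicate 1, 9 of the 13 were above the control mean and 3 at least 1 above it (23.1%, all genes 7.58%). These 3 were Mterf3 (1.65) and Tfb2m (1.29), both above the floor on that array alone, and Polrmt (1.40, below the floor). On 40 µM replicate 2 they stood at −0.03, −0.06 and −0.12. Ppargc1a, which encodes PGC-1α, read 12.69 and 12.54 on the controls, 12.15 and 12.39 at 2.5 µM and 11.56 and 12.01 at 40 µM. All 4 treated arrays were below both controls, and the 40 µM arrays were lowest, with a difference of −0.83 (SE 0.22), a limma p of 0.00647 and an adjusted p of 0.349. Nrf1 read 12.16 and 12.21, then 11.97 and 12.09, then 11.87 and 12.16, and Gabpa read 11.84 and 12.16, then 11.97 and 12.36, then 12.06 and 12.02. Mitf, a pigment cell marker, read 16.03 and 15.95, then 15.83 and 15.88, then 15.10 and 15.51, with a limma adjusted p of 0.349 at 40 µM. As in any bulk sample, fewer cells of a kind and less RNA per cell cannot be told apart here.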

How the data were processed

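RNA of 6 samples was read on Affymetrix mouse arrays with a single colour. The deposited table is in log2 units. Per the submitters' processing notes, the authors used RMA, Transcriptome Analysis Console and Affymetrix Expression Console (no versions named). RMA equalises total signal between arrays. Deposited values ran from 1.65 to 19.9, above what a 16-bit scanner image allows, so the scale holds an unstated step, and folds rest on it. The genome build of the array annotation is not given in the sources used here.

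Of 28846 features 6640 were controls, 5222 of them negative controls. Of 22206 transcript clusters 19572 had 1 symbol. A gene with several (55 genes, no subunit gene) kept the cluster with the highest mean, leaving 19505 genes. Overlapping or near-identical copies cannot be told apart.

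Groups were compared with limma 3.58.1 in R 4.3.3 (group means, all 6 arrays, no covariate, variance prior following the mean, 3 residual degrees of freedom, prior worth 4.11), with two-sided p-values adjusted by Benjamini-Hochberg over the whole table and a threshold of 0.05. The scripts were tested on simulated data. The number of arrays limits the precision. Named genes are fixed core subunits and isoforms, the 3 smallest p-values per complex and comparison, and the genes with the widest gap to the controls on all treated arrays, and some further subunits were added after their values were seen. Of 120 other pathway and marker genes 111 were measured. The subunit genes, lists and tests were chosen with earlier results of these data known. Alternatives changed the variance prior, the scaling, the filter, the arrays used and the blocks. The main fit did not take equal replicate numbers as pairs. They were paired only to describe the dose difference and as a block in an alternative fit. Over all genes, replicate 1 minus replicate 2 correlated at −0.00452 between control and 2.5 µM, −0.0121 between control and 40 µM and 0.386 between the doses.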

Additional observations from a re-analysis of the deposited data

How the results depend on the processing

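Most alternatives left the counts at 0 calls and the medians near their values. The exceptions left out arrays or took the split of the arrays as a block. Leaving out each array in turn, the 40 µM against control comparison had 0 to 21 subunit genes called (21, all higher, 25.0%, without 40 µM replicate 2, against 7.46% of all genes higher and 3.99% lower) and a median of −0.017 (without 40 µM replicate 1) to 1.17. For 2.5 µM against control calls stayed at 0 and the median ran from −0.16 to 0.67. For 40 µM against 2.5 µM calls stayed at 0 and the median ran from −0.35 to 0.91. Such fits assume that a group left with 1 array varies as the others do. Without both low-control arrays, an alternative chosen after seeing the data, the error came from the 2 control arrays alone. This gave 17 calls and a median of −0.017 for 40 µM against control (10.7% of subunit genes higher and 9.52% lower, against 9.15% and 10.1% of all genes), 33 calls and −0.16 for 2.5 µM against control (9.52% higher and 29.8% lower, against 10.6% and 9.88%), and 21 calls and 0.15 between doses (17.9% and 7.14%, against 7.04% and 8.16%). Of 42 genes compared by name, 16 changed sign for 40 µM against control in this setting, among them Cox7a2, which passed the threshold there at −0.43, and 16 without 40 µM replicate 1 alone. With the low-control split as a block, also chosen after seeing the data, calls stayed at 0, and the median was 0.08 for 40 µM and −0.20 for 2.5 µM against control. Quantile normalization gave medians of 0.50, 0.22 and 0.33, scaling to a like spread 0.67, 0.30 and 0.38, and genes with a mean above the floor (55 subunit genes, some of them raised over it by the low-control arrays) 0.69, 0.33 and 0.36. With the replicate number as a block, which the labels do not give as a pairing, calls stayed at 0 with medians of 0.59, 0.27 and 0.34, and 29, 7 and 4 subunit genes were higher at an unadjusted p of 0.05 (34.5%, 8.33% and 4.76%, against 7.66%, 4.94% and 2.93% of all genes), and 1, Ndufa5 at 2.5 µM, lower (5.72% of all genes). Without the block 5, 1 and 1 were higher. Signal over background limits the 19 genes below the floor.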
